A study of Homo sapiens with 8 samples.

Results

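LIN28A, LIN28B, IGF2BP1, IGF2BP2, IGF2BP3, HMGA1, HMGA2 and TRIM71 are RNA-binding and chromatin genes of the embryo that many tumours express again. These 8 genes were chosen by symbol among 60234 genes, with earlier results of these data known, and each symbol stood on 1 Ensembl identifier (LIN28A, ENSG00000131914; LIN28B, ENSG00000187772; TRIM71, ENSG00000206557; IGF2BP1, ENSG00000159217; IGF2BP2, ENSG00000073792; IGF2BP3, ENSG00000136231; HMGA1, ENSG00000137309; HMGA2, ENSG00000149948). The values that were in view were the difference between siG9a and control at each replicate number and the distance of replicate 3 from the other numbers. Both are therefore given here as descriptions, and an adjusted p places a gene in the fit of all genes without supporting the choice of it. Of the 8 genes, 7 averaged 1 CPM (counts scaled to library size) or more and entered that fit, and LIN28A had no read.

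RNA was measured in Rh41, an established human line of alveolar rhabdomyosarcoma, a tumour of skeletal muscle type, that carries the PAX3-FOXO1 fusion. All 8 libraries come from this 1 line. The control group held 4 libraries and the siG9a group 4, numbered 1 to 4 in each and described as biological replicates. The siG9a group had a knockdown of G9a, the product of EHMT2, which methylates lysine 9 of histone H3; the labels write si and the series title writes sh, and the agent given to the controls, the dose and the time are not given in the sources used here.

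LIN28A and LIN28B bind the precursors of the let-7 microRNAs and block their maturation. Mature let-7 pairs through its seed with mRNAs such as those of HMGA2, IGF2BP1 and LIN28B itself and lowers their output. TRIM71 is an RNA-binding ubiquitin ligase of early development and a classical let-7 target. The IGF2BP proteins bind mRNAs, among them that of IGF2, and affect their stability, transport and translation. HMGA1 and HMGA2 are small proteins that bind AT-rich DNA and bend chromatin, and HMGA2 transactivates IGF2BP2 in muscle precursors. Mature let-7 was not measured in these poly(A)-primed libraries.

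The let-7 sequences are shown because LIN28 proteins act on let-7 and several of the 8 genes are known let-7 targets. RefSeq holds 9 human mature let-7 and miR-98 forms of the 5p arm, and all 9 have the same bases 2 to 8, in capitals in these 4.
hsa-let-7a-5p: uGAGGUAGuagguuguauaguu
hsa-let-7d-5p: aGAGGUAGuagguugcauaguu
hsa-let-7g-5p: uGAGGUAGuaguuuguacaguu
hsa-miR-98-5p: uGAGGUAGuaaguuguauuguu
The forms differ outside the seed, and hsa-let-7d-5p also differs at its first base.

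LIN28 proteins are known to hold a GGAG motif between the arms of let-7 precursors, so 1 hairpin with it and 1 without it are shown from RefSeq (GRCh38.p14). The let-7g hairpin at chr3:52268278-52268361 on the minus strand carries the motif, in capitals, and the let-7a-3 hairpin at chr22:46112749-46112822 on the plus strand does not.
let-7g: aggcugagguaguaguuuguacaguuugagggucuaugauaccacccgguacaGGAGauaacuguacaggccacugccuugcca
let-7a-3: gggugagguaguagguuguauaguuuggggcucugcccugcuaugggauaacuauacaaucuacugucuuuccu
The letters GGAG on the given strand stood between the arms of 8 of the 11 let-7 family hairpins with both arms annotated. Over all human hairpins with both arms they stood in 60 of 739, or 8.12%. Among other hairpins with 20 to 50 bases between the arms they stood in 24 of 137, or 17.5%.

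The match to the seed in an mRNA reads CTACCTC, and each of the 8 genes had it at least once in the longest 3′ UTR of its principal GENCODE release 29 transcript, on the sense strand. TRIM71 had 6 matches, LIN28B, IGF2BP1 and HMGA2 had 4 each, and LIN28A, IGF2BP2, IGF2BP3 and HMGA1 had 1 each. Over 19200 genes with a 3′ UTR, 8.67% had a match, and among UTRs of like length the share ran from 8.69% at the length of HMGA1 to 30.1% at that of IGF2BP1. As many matches as LIN28B were held by 0.229% of UTRs of like length, and as many as HMGA2 by 0.097%. These sites are shown with the match in capitals, each numbered from the stop codon.
LIN28B site 1: ttacccggttgcaaagtCTACCTCatgcaa
LIN28B site 3: ctgtttacagcaaaaggCTACCTCatagtt
TRIM71 site 1: acaacattgcttaagtcCTACCTCatcttt
TRIM71 site 2: gaagtgataatttctatCTACCTCataaat
IGF2BP2 site 1: aaaacacacagaagaagCTACCTCaggtgt
IGF2BP3 site 1: cgtgcatttttactcaaCTACCTCaggtat
HMGA1 site 1: tttcctctgttcacaaaCTACCTCtggaca
An A after the match is known to favour microRNA targeting. It followed 2 of the 4 matches of LIN28B, 4 of 6 in TRIM71, 3 of 4 in IGF2BP1, 1 of 4 in HMGA2, and the single match of LIN28A, IGF2BP2 and IGF2BP3 but not that of HMGA1. The sites shown for LIN28B and TRIM71 are among those with the A.

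**Figure D1:**
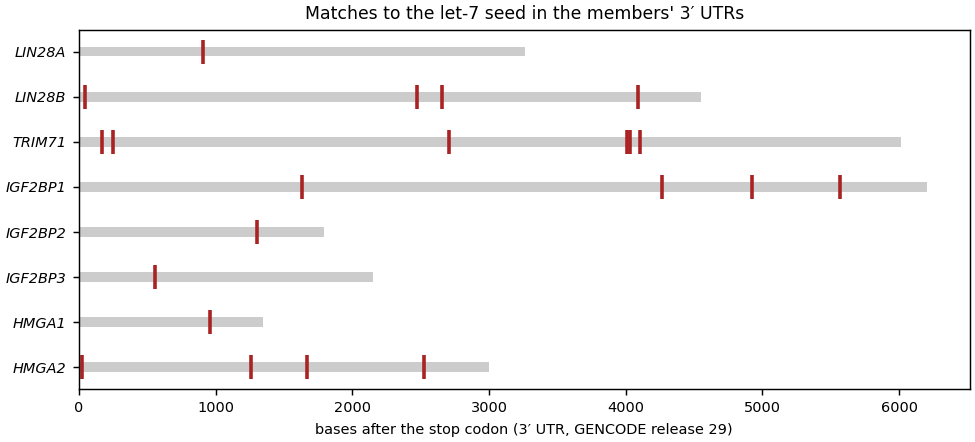
Positions of the let-7 seed match along the longest 3′ UTR of each gene, in bases after the stop codon; grey bars are UTRs and red marks are matches. The first match of HMGA2 starts at base 21 and that of LIN28B at base 44, whereas the first of IGF2BP1 starts at base 1632.

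Libraries held 1458825 to 1938665 reads assigned to genes, so 1 read was worth 0.516 to 0.685 CPM, and 3 reads, the upper limit that a count of 0 sets, were worth 1.55 to 2.06 CPM. EHMT2, the targeted gene, stood at 57.6, 68.1, 87.3 and 88.3 CPM in control replicates 1 to 4, and at 19.6, 35.1, 33.1 and 58.5 CPM in siG9a replicates 1 to 4. It was lower at all 4 numbers, to between 34.0% and 66.3% of the control of the same number, although siG9a replicate 4 lay just above control replicate 1. Its log2 difference was -1.10 ± 0.31 (SE, n = 4 and 4), and its limma adjusted p was 0.191 with group alone (unblocked) and 0.000472 with the replicate number as a block (blocked), with an exact two-sided permutation p of 0.0571. Rh41 cells were marked by MYOD1, the muscle determination factor, at 95.3 to 864 CPM, and MYF5 was at 0 in all 8 libraries. In the unblocked fit 0 of 15092 genes passed an adjusted p of 0.05 in limma, a share of 0%; 1880 had an unadjusted p under 0.05, edgeR called 0 genes and DESeq2 292. In the blocked fit limma called 733 genes higher, or 4.86% of those tested, and 984 lower, or 6.52%. In that fit 3854 of the 15092 genes had an unadjusted p under 0.05. Of the 7 genes tested here limma called 0 unblocked, with IGF2BP1 alone at an unadjusted p under 0.05, and 1 blocked, IGF2BP1, higher, with 3 at an unadjusted p under 0.05.

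LIN28A had 0 reads in every library, which allows up to 1.55 CPM in the deepest library and 2.06 CPM in the shallowest. LIN28B was the form of LIN28 with reads in Rh41. In control replicates 1 to 4 it stood at 0, 9.72, 83.6 and 27.5 CPM, from 0, 16, 136 and 53 reads. In siG9a replicates 1 to 4 it stood at 1.03, 13.9, 46.3 and 19.5 CPM, from 2, 23, 81 and 34 reads. In both groups number 1 was the lowest and number 3 the highest, with number 4 above number 2, and the groups overlapped throughout. In the controls the value of replicate 3 was 40.7 times the limit that 0 reads allow in replicate 1. That figure leaves out the counting error of replicate 3 and is not a lower bound. The 95% Wilson counting intervals were 70.7 to 98.9 CPM in control replicate 3 and 0 to 2.63 CPM in control replicate 1. In the siG9a group replicate 3 was 44.8-fold higher than replicate 1, with a 95% counting interval of 12.0 to 376.

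Between the groups LIN28B was higher in siG9a at numbers 1 and 2 and lower at numbers 3 and 4. The log2(CPM + 1) difference was 0.05 ± 1.20 (SE) unblocked and had an SE of 0.32 blocked, and the limma adjusted p was 0.993 unblocked and 0.950 blocked. The spread of LIN28B among libraries of 1 group, with an SD of 37.4 CPM in the controls and 19.03 in siG9a, thus exceeded the difference between group means of 30.2 and 20.2 CPM. The direction turned in 12 of 26 alternative settings, from -1.18 without control replicate 1 to 0.96.

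TRIM71 was close to the limit of detection. It had 0, 2, 16 and 7 reads in control replicates 1 to 4, or 0, 1.22, 9.84 and 3.63 CPM. In siG9a it had 14 reads in replicate 3, or 7.99 CPM, and 0 in replicates 1, 2 and 4, which allows 1.55, 1.82 and 1.72 CPM there. As for LIN28B, number 3 was the highest library of each group. The log2(CPM + 1) difference between groups was -0.91, lower in siG9a at 3 numbers and at 0 in both groups at number 1, a value that depends on the pseudocount, and the limma adjusted p was 0.712 unblocked and 0.234 blocked.

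**Figure D2:**
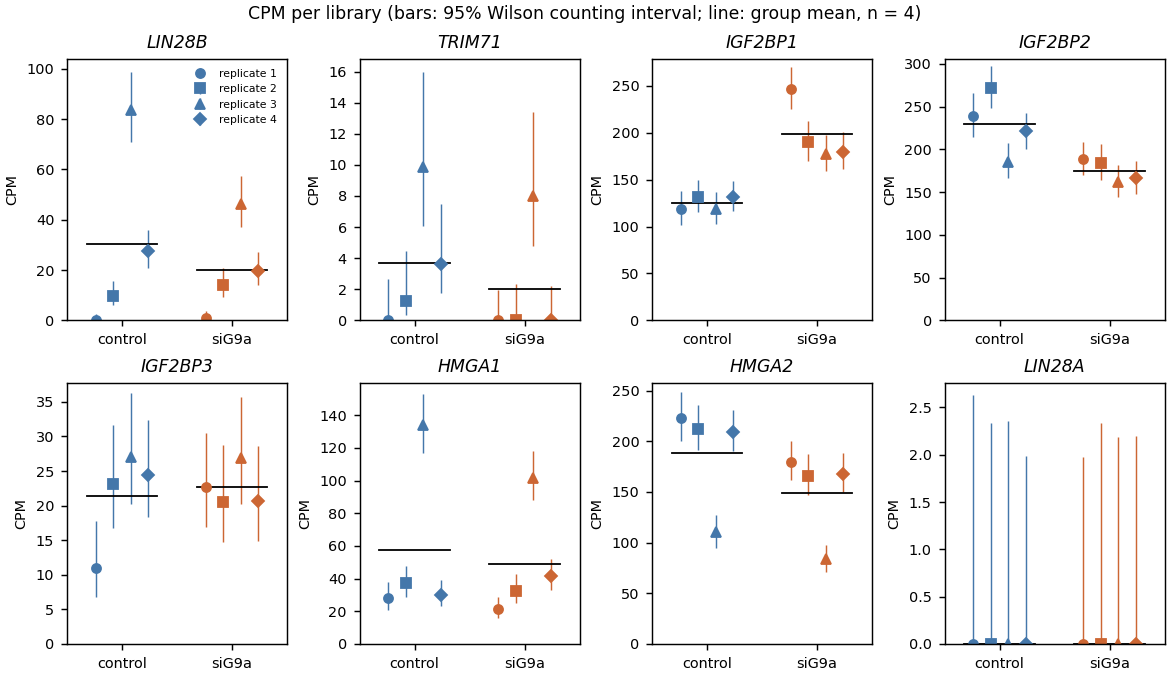
CPM of each of the 8 genes in each library, with 95% Wilson intervals that cover counting error only, and the mean of 4 libraries as a line; blue is control, orange is siG9a, and the marker shape gives the replicate number. The triangles of replicate 3 stand above the rest for LIN28B, TRIM71 and HMGA1 and below the rest for HMGA2, and all 4 siG9a values of IGF2BP1 lie above its controls.

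IGF2BP1 was the 1 gene of the 8 whose groups did not overlap. In control replicates 1 to 4 it stood at 119, 131, 119 and 132 CPM. In siG9a replicates 1 to 4 it stood at 247, 190.05, 178 and 179.5 CPM. The means were 125 ± 7.47 and 198 ± 32.6 CPM (SD, n = 4 and 4), and siG9a was at 208%, 145%, 150% and 136% of the control of the same number. Among all genes tested, 3.88% had every siG9a value above every control value, and 14.9% were higher at all 4 numbers.

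The log2 difference of IGF2BP1 was 0.65 ± 0.19 (SE, limma adjusted p 0.207) unblocked and 0.65 ± 0.15 (0.00569) blocked. In the blocked fit without both replicate 3 libraries it was 0.67, adjusted p 0.0335, and without both replicate 1 libraries it was 0.52, adjusted p 0.0644, which ends the call. Over the 26 alternatives its log2 difference ran from 0.52 to 0.72, the adjusted p from 0.00314 to 0.482, and 9 called it. Without the block DESeq2 called it, with an adjusted p of 0.0394, and edgeR did not, with 0.207.

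IGF2BP2, the paralogue that muscle precursors use in proliferation, was lower in siG9a at all 4 numbers but did not pass the test. In control replicates 1 to 4 it stood at 239, 272, 186 and 221 CPM. In siG9a replicates 1 to 4 it stood at 189, 184, 162 and 166 CPM. One siG9a value, that of replicate 1, lay above the lowest control, that of replicate 3. The log2 difference was -0.38 ± 0.19 (SE), and the limma adjusted p was 0.439 unblocked and 0.0871 blocked. IGF2BP2 and HMGA2 were the 2 of 7 genes lower at all 4 numbers, where 15.3% of all genes tested were.

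IGF2BP3, the third paralogue, was the least abundant, and a 3′ tag protocol yields about 1 tag per transcript whatever its length. Control replicates 1 to 4 held 11.0, 23.1, 27.1 and 24.4 CPM and siG9a replicates 1 to 4 held 22.7, 20.6, 26.8 and 20.7 CPM. Control replicate 1 was the lowest of the 8 libraries, and 3 of the 4 siG9a values lay below the other 3 controls, so the order of the groups turned on that library. The log2 difference was 0.15 ± 0.31 (SE), limma adjusted p 0.899 unblocked and 0.774 blocked, and it turned to -0.13 when control replicate 1 was left out.

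The balance between the IGF2BP paralogues differed between the groups, and their summed levels overlapped. IGF2BP1 made up 32.2%, 30.8%, 35.8% and 34.9% of the summed IGF2BP CPM in the 4 controls in order, and 53.8%, 48.2%, 48.5% and 49.0% in the siG9a libraries. IGF2BP2 made up 60.8% ± 4.2 of it in the controls and 44.3% ± 2.3 in siG9a (SD, n = 4 and 4), and IGF2BP3 5.75% ± 2.17 and 5.79% ± 1.07. IGF2BP2 was thus the most abundant paralogue in all 4 controls, and IGF2BP1 in all 4 siG9a libraries. The summed CPM was 376 ± 38.9 in the controls and 396 ± 43.3 in siG9a, a difference of 20.4 CPM that is smaller than the SD of either group and ran from -0.23 to 37.0 with any 1 library left out. The share of IGF2BP1 differed by 16.4 percentage points, and by 15.1 to 17.2 with any 1 library left out and 17.7 without both replicate 3 libraries. This share is a ratio within a library, so scaling does not move it, and it was computed after the values of its genes were seen, with no test.

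**Figure D3:**
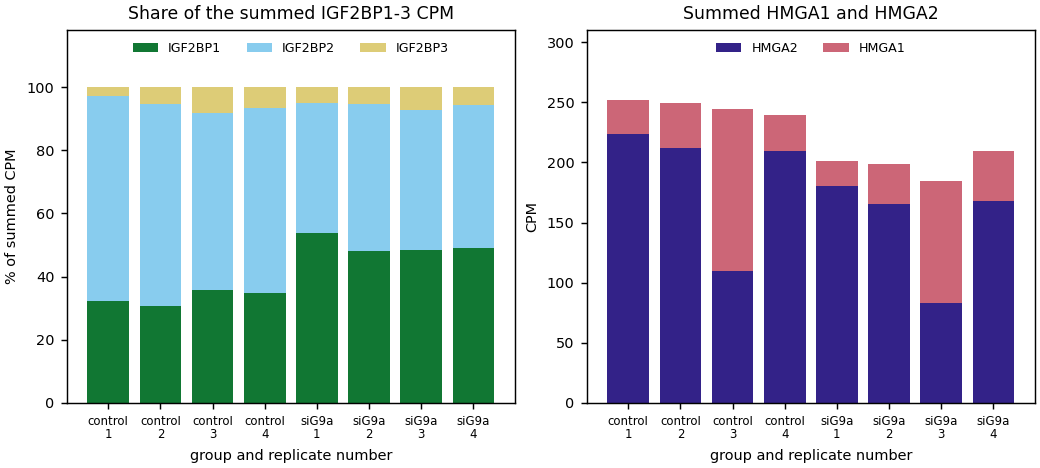
Left, the share of the summed IGF2BP CPM held by each paralogue in each library; right, the summed CPM of HMGA1 and HMGA2. The green IGF2BP1 part spans 30.8% to 35.8% in control and 48.2% to 53.8% in siG9a, and the HMGA1 part is 54.9% of the sum in both replicate 3 libraries.

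HMGA2 was lower in siG9a at all 4 numbers by almost the same fraction. In control replicates 1 to 4 it stood at 223, 212, 110.1 and 209 CPM. In siG9a replicates 1 to 4 it stood at 180.02, 166, 83.4 and 168 CPM. The siG9a values were 80.6%, 78.2%, 75.7% and 80.3% of the controls of the same number. Replicate 3 was the lowest library in each group, and apart from it the siG9a values lay below the controls. The log2 difference was -0.34, with an SE of 0.30 unblocked and 0.14 blocked, and limma adjusted p-values of 0.694 unblocked and 0.126 blocked.

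HMGA1 differed far more between numbers than between groups. In control replicates 1 to 4 it stood at 28.1, 37.1, 134 and 30.1 CPM. In siG9a replicates 1 to 4 it stood at 21.2, 32.7, 102 and 41.3 CPM. Replicate 3 was the highest library in both groups, and the other 6 lay within 21.2 to 41.3 CPM. The log2 difference was -0.13 ± 0.53 (SE), lower at 3 numbers and higher at number 4, and the limma adjusted p was 0.949 unblocked and 0.738 blocked. It turned to 0.38 without control replicate 3 and to 0.18 without siG9a replicate 1.

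The sum of HMGA1 and HMGA2 was narrow in both groups even though its parts were not. It was 252, 249, 244 and 239 CPM in the 4 controls in order and 201, 199, 185 and 209 CPM under siG9a, or 246 ± 5.42 and 199 ± 10.1 CPM (SD, n = 4 and 4). HMGA1 held 54.9% of it in replicate 3 of each group and 10.5% to 19.7% in the other 6 libraries. The sum differed by -47.5 CPM between groups and by -51.2 to -43.0 with any 1 library left out. The sum was also chosen after the values were seen and has no test.

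**Figure D4:**
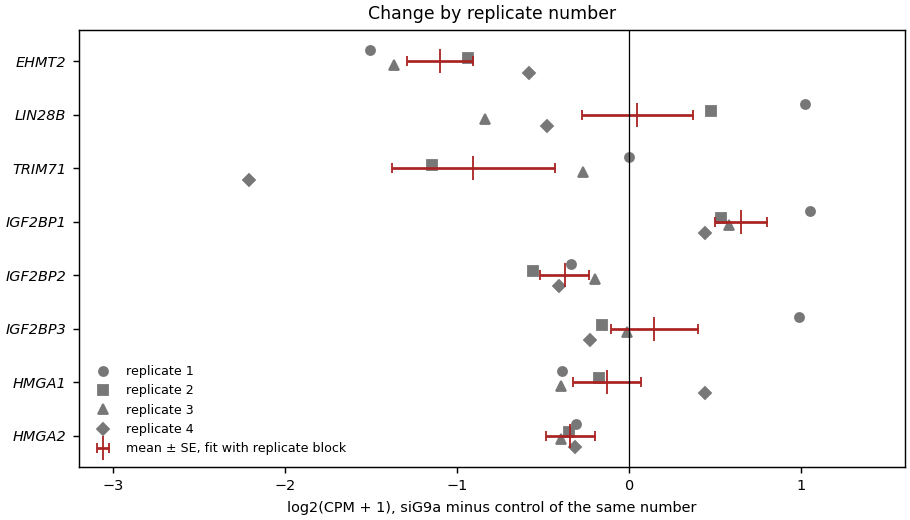
Difference in log2(CPM + 1) between siG9a and control of the same replicate number (grey shapes) and the mean with its SE from the fit with the replicate block (red), for EHMT2 and the 7 genes with reads. The 4 points of IGF2BP1 lie between 0.44 and 1.05, those of HMGA2 between -0.40 and -0.31, and those of LIN28B between -0.84 and 1.02, on both sides of 0.

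Replicate 3 stood apart from the other numbers in both groups. On the log2(CPM + 1) scale LIN28B was 3.65 above the mean of replicates 1, 2 and 4 in the controls and 2.47 above it in siG9a. HMGA1 was 2.05 and 1.70 above it, and TRIM71 2.32 and 3.17 above it. HMGA2 was 0.96 and 1.03 below it. IGF2BP3 was 0.53 and 0.32 above, IGF2BP1 0.10 and 0.20 below, and IGF2BP2 0.39 and 0.15 below. Of the 6 genes that averaged 10 CPM or more, LIN28B and HMGA1 were at least 2-fold higher in replicate 3 in both groups, where 4.06% of 8898 genes of that level were. None of the 6 was at least 2-fold lower in both, where 8.19% of genes were; HMGA2 lay at 51.2% of the others in the controls and 48.7% in siG9a on the CPM scale. The distance of replicate 3 was in view when the genes were chosen, so it is given as a description with no test.

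The muscle markers of the line were also low in replicate 3, and the neurofilament genes NEFM and NEFL were high there. The summed level of the 15 muscle markers was 482 CPM in control replicate 3 against 2853 to 3343 in the other controls. In siG9a it was 379 against 1337 to 1993. Of 9 with a mean of at least 10 CPM, 8 were at least 2-fold lower in replicate 3 in both groups, among them MYOD1, at 95.3 CPM in the control and 128 in siG9a. The neural list summed to 9610 CPM in control replicate 3 against 198 to 2054 in the others, and to 8939 against 232 to 2956 in siG9a. Replicate 1 was the lowest in both groups. Nearly all of the sum was NEFM, at 8046 and 7625 CPM in replicate 3 of control and siG9a, and NEFL, at 1557 and 1302. The rest of the list shared no direction. Replicate 3 differed by 1.54 and 1.24 for STMN2, by -1.34 and -0.94 for MAP2 and by -1.65 and -0.06 for TUBB3, on the log2(CPM + 1) scale. These differences rest on few reads. STMN2 lay at 0 to 2.46 CPM over the 8 libraries, TUBB3 at 0 to 7.29 CPM and MAP2 at 2.85 to 10.97 CPM. In bulk RNA fewer cells of a type and less RNA per cell cannot be told apart, and the part of these markers in the values of LIN28B, HMGA1, TRIM71 and HMGA2 was not tested.

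The remaining marker lists had lower sums than the muscle markers outside replicate 3. The epithelial sum was 10.3 to 76.2 CPM and the pluripotent sum 1.04 to 59.0 CPM, both highest in control replicate 3, with POU5F1, NANOG, TDGF1 and ZFP42 at 0 and SOX2 higher in replicate 3 by 2.39 and 2.28 on the log2(CPM + 1) scale. The kidney sum was 25.4 to 63.8 CPM. The fibroblast sum, like that of the muscle markers, was lowest in replicate 3 of each group, at 52.0 CPM in siG9a against 146 to 323, and in control below the 262 to 409 of the other libraries. COL3A1 was its most abundant gene in 7 of the 8 libraries. The immune sum was at most 5.14 CPM and the endothelial sum at most 2.08 CPM, with CDH5 and KDR at 0. Between the groups, limma called 6 of 12 muscle markers tested lower with the block and 0 higher, and 5 lower without replicate 3. Over all genes tested it called 6.52% lower with the block and 692 of 15092 without replicate 3. The muscle markers called with the block included the muscle actin ACTC1 (log2 difference -1.77, adjusted p 2.46e-08) and desmin (DES, -1.77, 6.69e-06). MYOD1 differed by -0.03. One gene each of the fibroblast (COL1A1), epithelial (CDH1) and kidney (PAX2) lists was called lower by limma with the block. Without replicate 3 COL1A1 was not called, and the epithelial KRT19 was called higher (log2 difference 2.06, adjusted p 0.0182). With the block edgeR and DESeq2 called no fibroblast gene, and DESeq2 no epithelial one. None was called in the neural, pluripotent or immune lists by limma, edgeR or DESeq2, where 0 genes had an unadjusted p under 0.05.

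**Figure D5:**
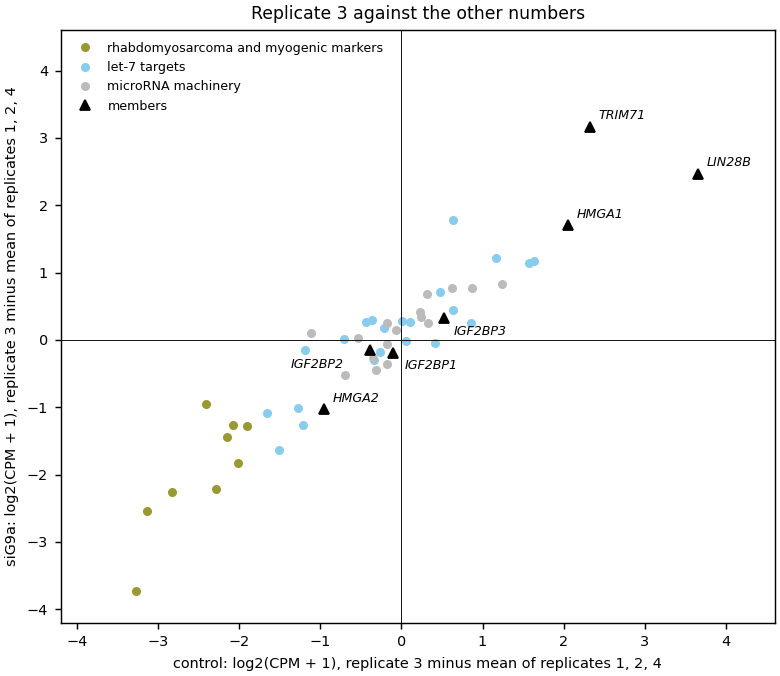
Distance of replicate 3 from the mean of replicates 1, 2 and 4, in log2(CPM + 1), in the controls (x) and in siG9a (y); triangles are the 7 genes with reads, and dots are list genes averaging 10 CPM or more. LIN28B, TRIM71 and HMGA1 lie at the upper right, HMGA2 at the lower left at -0.96 and -1.03, and the 9 muscle markers further left.

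The promoters of LIN28B and HMGA1 are shown because both genes were high in replicate 3 of each group. RefSeq (GRCh38.p14) promoter windows, 250 bases before to 50 after a start, matched 5 of the 8 genes, LIN28B, TRIM71, IGF2BP2, IGF2BP3 and HMGA1. Of the windows listed for each gene, the one with the most CG dinucleotides is shown. The LIN28B window is chr6:104940715-104941014 and the HMGA1 window chr6:34236623-34236922, both on the plus strand, with each CG dinucleotide in capitals.
LIN28B: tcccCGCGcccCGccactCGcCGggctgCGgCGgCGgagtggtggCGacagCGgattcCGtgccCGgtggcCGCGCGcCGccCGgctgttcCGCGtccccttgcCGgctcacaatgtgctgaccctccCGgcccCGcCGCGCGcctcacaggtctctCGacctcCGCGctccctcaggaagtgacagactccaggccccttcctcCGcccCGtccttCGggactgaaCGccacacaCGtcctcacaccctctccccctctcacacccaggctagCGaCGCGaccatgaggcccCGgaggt
HMGA1: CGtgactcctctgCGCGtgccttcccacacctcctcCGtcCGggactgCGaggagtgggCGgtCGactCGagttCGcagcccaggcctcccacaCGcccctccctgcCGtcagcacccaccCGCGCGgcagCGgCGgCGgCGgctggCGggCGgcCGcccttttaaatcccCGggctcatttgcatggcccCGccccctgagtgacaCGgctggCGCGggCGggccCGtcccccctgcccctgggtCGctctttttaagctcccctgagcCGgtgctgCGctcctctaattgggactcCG
The LIN28B window holds 37 CG dinucleotides, that of HMGA1 33 and that of TRIM71 27, where 11.3%, 17.2% and 28.2% of windows held as many. The richest window of IGF2BP2, a gene that was not high in replicate 3, holds 38, as many as 9.91% of windows, and that of IGF2BP3 holds 17, as many as 46.0%. The median over 35116 windows was 14. The other listed window holds 8 for LIN28B, 5 for HMGA1 and 3 for IGF2BP2, where 60.7%, 70.4% and 81.8% of windows held as many. For these genes the richest of several windows was set against single windows, which lowers its share.

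Other genes of the let-7 pathway were taken from a list of processing factors, in part proteins that cut, export, load or tail the precursor. Of 17 tested, limma called 0 with the block in either direction, with 3 at an unadjusted p under 0.05, where 3854 of all 15092 genes were. With the block edgeR and DESeq2 also called 0 of the 17. Their median log2 difference was -0.19, against 0.01 over all genes tested. DICER1, which cuts the precursor, averaged 154 ± 32.1 CPM in the controls and 160 ± 26.9 in siG9a. KHSRP, which binds the terminal loop and promotes processing, averaged 642 ± 239 and 526 ± 181 CPM. HNRNPA1 and SYNCRIP, other loop-binding proteins, differed by -0.25 and -0.33 on the log2 scale, at blocked limma adjusted p-values of 0.348 and 0.152. Of 7 transcripts that host let-7 hairpins 3 had a row, HUWE1, WDR82 and LINC00478, and limma, edgeR and DESeq2 with the block called none of them, with 1 at an unadjusted p under 0.05 in limma, and WDR82 at -0.30 the most distant from 0.

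Targets of let-7 moved in both directions. Of 30 from the general literature, with the 8 genes left out, limma with the block called 4 higher and 5 lower. Over all genes tested it called 4.86% and 6.52%. Without replicate 3 it called 4 and 4, against 386 and 692 of all 15092 genes. Without the block it called 0, with 8 at an unadjusted p under 0.05, where 1880 of all genes were. Their median log2 difference was -0.01, against 0.01 over all genes. CCND2, a cyclin of the G1 phase, stood at 664, 453, 239 and 546 CPM across controls 1 to 4 and at 169, 114, 129 and 153 CPM across siG9a libraries 1 to 4. Its log2 difference was -1.67, adjusted p 3.13e-07 with the block. CDK6, the kinase partner of D-type cyclins, went the other way by 0.86, adjusted p 0.00094 with the block. The transcription factor ARID3A fell by 0.91 and the repressor HIC2 rose by 0.63, with blocked adjusted p-values of 0.000451 and 0.00565. Further calls, named after their values were seen, were NRAS at 0.96 and CDC25A at 0.89, both higher, and CCND1 at -1.20 and IGDCC3 at -1.29, both lower.

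Of 11 RNAs known to be bound by IGF2BP proteins, limma with the block called 0 higher and 4 lower, IGF2, CD44, CTNNB1 and PPP1R9B. The 11 include the non-coding RNA H19, which lay at 0 to 3.12 CPM. Without replicate 3 it called 3 lower. Over all genes tested it called 6.52% lower with the block and 692 of 15092 without replicate 3. Without the block it called 0, with 3 at an unadjusted p under 0.05, and DESeq2 with the block called 2. IGF2, the fetal growth factor for which the family is named, stood at 1317, 1363, 256 and 1132 CPM across controls 1 to 4 and at 523, 539, 259 and 949 CPM across siG9a libraries 1 to 4. Number 3 was the lowest in both groups and was the 1 number at which siG9a was not lower. The log2 difference of IGF2 was -0.73 (blocked limma adjusted p 0.00975), and -0.97 without replicate 3. The adhesion receptor CD44 averaged 56.3 ± 12.6 CPM in control and 29.9 ± 4.66 in siG9a, a log2 difference of -0.88 with an adjusted p of 0.00393 with the block. ACTB, whose mRNA IGF2BP1 is known to bind, averaged 229 ± 27.5 and 234 ± 38.0 CPM and was not called.

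Of 10 other fetal or embryonic genes tested, limma with the block called 4 lower and 0 higher, also without replicate 3. Without the block it called 0, with 2 at an unadjusted p under 0.05. Over all genes tested it called 6.52% lower with the block and 692 of 15092 without replicate 3. SOX11, a transcription factor of embryonic progenitors, differed by -1.88 on the log2 scale, adjusted p 1.44e-07 with the block, from 307 ± 171 to 74.3 ± 34.6 CPM. The others were PLAGL1 at -1.47, PEG10 at -0.60 and IGF2, which stands in both lists. The summed muscle markers were lower in siG9a at all 4 numbers too, and their part in these differences was not tested. Of 8 other high mobility group genes tested, HMGB2 was called higher with the block, at 0.71 (limma adjusted p 0.00428), and none lower. Over all genes tested limma called 4.86% higher with the block. Without the block it called 0 of the 8, with 1 at an unadjusted p under 0.05.

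RPSAP52, a transcribed pseudogene antisense to HMGA2 whose RNA has been reported to bind IGF2BP2, went against HMGA2 between the groups. It stood at 8.23, 6.08, 0 and 6.23 CPM across controls 1 to 4 and at 42.8, 14.5, 2.28 and 13.2 CPM across siG9a libraries 1 to 4. It was higher in siG9a at all 4 numbers, and like HMGA2 it was lowest in replicate 3 of each group. The log2 difference was 1.52 ± 0.81 (SE, limma adjusted p 0.477) unblocked and 1.52 ± 0.35 (0.00588) blocked, and 1.45 (0.0174) blocked without replicate 3. The use of strand in counting is not given in the sources used here, so reads of HMGA2 and RPSAP52 where they overlap may not be told apart. The same holds for LIN28B and LIN28B-AS1, and for IGF2BP1 and its antisense genes AC091133.2 and AC091133.3. It also holds for IGF2BP2 and IGF2BP2-AS1, for IGF2BP3 with MALSU1 and AC021876.1, and for HMGA2 with AC090673.1 and AC090673.2. The processed pseudogene AC091133.4 overlaps IGF2BP1 on the same strand. Of the processed copies of HMGA1 and LIN28A in the table, 8 were at 0 in all libraries, and HMGA1P4 and HMGA1P8 reached at most 0.57 and 1.71 CPM.

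The genes most like each of the 6 genes of at least 10 CPM were named by the smallest root mean square difference of centred log2(CPM + 1) over the 8 libraries, among 8892 genes. For LIN28B they were CPNE7 (0.39), STAG2 (0.47) and NEFL (0.49), where the spread of LIN28B itself was 2.05 and the median gene differed by 2.06. CPNE7 stood at 1.37, 11.6, 116 and 28.6 CPM across controls 1 to 4 and at 1.03, 13.3, 55.4 and 25.8 across siG9a libraries 1 to 4, in the order of LIN28B. STAG2 encodes a cohesin subunit. For IGF2BP1 they were BRK1 (0.04), ANKRD10 (0.08) and NDUFS4 (0.10), with its own spread at 0.36. BRK1, a small subunit of the WAVE actin regulator, stood at 80.9, 86.9, 73.2 and 89.3 CPM across controls 1 to 4 and at 169, 127, 119 and 119 across siG9a libraries 1 to 4.

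For IGF2BP2 they were TMEM38A (0.07), PACSIN3 (0.08) and CMIP (0.09), with its own spread at 0.24, and for IGF2BP3 they included RNF41 (0.10) and TRIM26 (0.14), with its own spread at 0.37. For HMGA1 they were PNP, KRI1 and RPF2, each at 0.27, with its own spread at 0.86. KRI1 and RPF2 are ribosome assembly factors, and KRI1 was at 177 CPM in control replicate 3 against 47.3 to 67.5 in the other controls. For HMGA2 they were S100A11 (0.07), ZSCAN18 (0.14) and PPP1R9A (0.14), with its own spread at 0.47. S100A11, a calcium-binding protein, stood at 156, 146, 76.3 and 149 CPM across controls 1 to 4 and at 130, 119, 56.0 and 103 across siG9a libraries 1 to 4. The measure over 8 libraries of 1 line is a description and was not tested.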

How the data were processed

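RNA was measured in 8 Rh41 libraries made with the QuantSeq 3′ mRNA kit and sequenced as single-end reads, per the labels' protocols. The authors deposited CPM per gene, to 2 decimals, scaled to each library's reads assigned to genes. FastQC 0.11.8, Trim Galore, STAR 2.5.0a, HTSeq 0.8.0 and edgeR 3.28 are named in the submitters' processing notes, as are GRCh38 and hg19, with no role, so no gene coordinates are given from the table. The strand setting and the annotation are not given in the sources used here. Every value, 100%, was a whole multiple of 1 read within 0.006 CPM, so reads were recovered from the steps.

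The main test was limma 3.58.1 (R 4.3.3; trend) on log2(CPM + 1), with group alone, over the genes averaging 1 CPM or more, with Benjamini-Hochberg adjustment and a threshold of 0.05. edgeR 4.0.16 and DESeq2 1.42.0 on recovered reads, other scalings, pseudocounts, filters and left-out libraries were alternatives, as was the replicate number as a block. Replicate numbers come from the sample titles and are not explained there. Same-numbered libraries deviated together with correlations of 0.50, 0.10, 0.67 and 0.13 for numbers 1 to 4, all above 0.1. For numbers 2 and 4 these correlations do not single out the pairing, since control 2 with siG9a 4 reached 0.14 and control 4 with siG9a 2 reached 0.09. Blocked fits and counts over the 4 numbers rest on it. The numbers were taken to pair the libraries, and the blocked value is given beside results it changes. The scripts were tested on simulated data. Wilson intervals are at 95%, and intervals and floors cover counting error only.

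The members and lists were chosen with earlier results of these data known. Named genes are all 8 members and EHMT2, at most the 4 most abundant genes of each list plus at most 4 called with the block, and the 3 genes most like each member; some genes that this rule names are not reported here. Let-7 and promoter sequences are from RefSeq, and 3′ UTRs from GENCODE release 29, used for names, overlaps and seed matches.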

Additional observations from a re-analysis of the deposited data

Results flagged for a closer look

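In groups of 4 libraries, 70 sets of values were examined for 1 library far from the other 3, and 8 had one. The rule flags about 1 in 20 sets of independent values, or 3.5 of 70. These sets share the same 8 libraries, so no conclusion is drawn from that rate. Of the 8, 6 were replicate 3. Replicate 3 was in view when HMGA1, HMGA2 and TRIM71 were chosen, so these are descriptions and no test of it. These were HMGA1 in control (134.05 CPM), HMGA2 in control (110.07 CPM) and in siG9a (83.36 CPM), TRIM71 in siG9a (7.99 CPM, against 0 in the other 3), and PPP1R9B in control (29.52 CPM) and in siG9a (21.12 CPM). With 0 in the other 3, TRIM71 in siG9a would have been flagged at any value above 0. The other 2 were HMGB2 in siG9a replicate 1 (218.71 CPM) and HMGN3 in control replicate 4 (298.56 CPM). LIN28B was not among them, since its libraries 1, 2 and 4 also lay far apart.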

How the results depend on the processing

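With the replicate block the genes called went from 0 to 1717, the genes of the 8 called from 0 to 1 (IGF2BP1), and EHMT2 passed at a log2 difference of -1.10. On recovered reads with the replicate block edgeR called 1709 genes and DESeq2 936, with 1 of the 8 in each, IGF2BP1 at 0.65 and 0.64 and EHMT2 at -1.10 and -1.12; without it DESeq2 called 292 genes and 1 of the 8, IGF2BP1 at 0.66. No filter gave 18 genes. Leaving out 1 library gave 0 to 300 genes, with 300 without control replicate 3 and 2 without siG9a replicate 4. Leaving out both replicate 3 libraries gave 413 genes, and 1078 with the replicate block, with 1 of the 8 and EHMT2 at -1.01. Chosen after seeing the data, all with the replicate block: without both replicate 1, 2 or 4 libraries the genes called were 951, 668 and 1393, those of the 8 called 0, 1 and 1, and EHMT2 stood at -0.97, -1.16 and -1.27. Median-ratio scaling gave 1693 genes and quantile normalization 1688, each with 1 of the 8, with EHMT2 at -1.11 and -1.07. The block changed no other member's call.

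LIN28B changed sign to -0.14 with a pseudocount of 5, to -0.59 with edgeR and -0.36 with edgeR and the replicate block, to -0.59 with DESeq2 and -0.24 with DESeq2 and the block. It stood at -0.28 and -0.10 without both replicate 1 or both replicate 2 libraries with the block, and leaving out 1 library gave -1.18 to 0.96. IGF2BP3 changed sign to -0.13 without both replicate 1 libraries, and 1 library left out gave -0.13 to 0.28. HMGA1 with 1 library left out ran from -0.56 to 0.38. The cause was not tested. IGF2BP2, HMGA2 and TRIM71 kept their direction without a call in every alternative that gave a value. TRIM71 in replicate 3 moved from 2.32 and 3.17 in control and siG9a to 3.65 and 6.34 with a pseudocount of 0.1 and to 1.20 and 1.38 with 5. At 1 read per 0.516 to 0.685 CPM, LIN28A had no read to compare, and TRIM71 rested on 0 to 16 reads a library.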
